A study of Mus musculus with 24 samples.

Results

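The hypoxia-inducible factor (HIF) targets described here are 34 genes that lie outside glucose metabolism and blood vessel growth, taken from the 55487 genes with a normalized read count in mouse C2C12 myotubes. They were chosen by gene symbol as reported HIF targets, with earlier results of these data known. They were sorted broadly by role into transcription and chromatin proteins, ubiquitin ligases and signalling proteins, enzymes and mitochondrial proteins, ligands, membrane proteins, and cytoskeleton and trafficking proteins. The question put to each gene was how much of its rise under 1 % O2 remained in myotubes that were electrically stimulated to contract. C2C12 is a clonal mouse muscle line, all cultures were wild-type, and the myoblasts had been differentiated for 5 days under 5 % O2. Myotubes were then held for 2 h at 5 % or 1 % O2. They were left without stimulation (5 % CTRL and 1 % CTRL) or were next given repeated bouts of electrical stimulation (5 % STIM and 1 % STIM). RNA was sequenced from 6 cultures per group, 24 libraries in all. The authors replaced the medium before and after stimulation and do not state whether unstimulated cultures had the same handling and time. Any such difference cannot be told apart from contraction. All groups came from the same line, and the harvest directly after the exposure or the stimulation shows the transcripts at that single time.

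HIF is a pair of DNA-binding proteins, an O2-labile alpha subunit and a stable beta subunit. In the presence of O2, prolyl hydroxylases mark the alpha subunit for the VHL ubiquitin ligase, and it is destroyed. When O2 is scarce the pair binds short DNA motifs, ACGTG or GCGTG, near its targets, which include transcriptional repressors, mitochondrial enzymes, hormones and surface receptors as well as the glycolytic genes.

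To show the DNA next to members that moved most, the stretch before the transcription start is given for some of them. Ankrd37, Mxi1 and Ak4 rose most under 1 % O2 without stimulation among members with a promoter in the reference table. Selenbp1 and Vldlr had the lowest point estimates of the share of their rise kept with stimulation. The 95 % interval of Selenbp1 was wide (-83.8 to 47.8 %), so its rank is uncertain. Each line gives the 250 bases before the start, 5′ to 3′ in the direction of the gene, from RefSeq (build GRCm38.p6), and capitals mark ACGTG or GCGTG read on either strand. The stretches lie at chr8:45999851-46000100 (minus strand) for Ankrd37, chr19:53310256-53310505 (plus strand) for Mxi1, chr4:101419039-101419288 (plus strand) for Ak4, chr3:94932833-94933082 (plus strand) for Selenbp1 and chr19:27216234-27216483 (plus strand) for Vldlr.
Ankrd37: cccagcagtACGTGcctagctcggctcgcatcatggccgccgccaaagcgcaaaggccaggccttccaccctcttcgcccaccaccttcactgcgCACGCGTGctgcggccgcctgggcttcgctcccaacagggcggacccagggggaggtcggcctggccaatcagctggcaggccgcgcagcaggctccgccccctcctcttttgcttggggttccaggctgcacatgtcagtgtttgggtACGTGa
Mxi1: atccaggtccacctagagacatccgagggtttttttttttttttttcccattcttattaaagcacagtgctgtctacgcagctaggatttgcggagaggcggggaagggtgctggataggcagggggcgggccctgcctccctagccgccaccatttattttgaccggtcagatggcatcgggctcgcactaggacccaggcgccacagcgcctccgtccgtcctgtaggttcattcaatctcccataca
Ak4: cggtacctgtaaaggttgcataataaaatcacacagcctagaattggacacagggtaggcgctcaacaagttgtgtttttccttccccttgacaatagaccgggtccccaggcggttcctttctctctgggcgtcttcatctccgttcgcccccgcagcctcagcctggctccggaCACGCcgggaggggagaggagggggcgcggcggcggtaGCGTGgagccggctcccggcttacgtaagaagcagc
Selenbp1: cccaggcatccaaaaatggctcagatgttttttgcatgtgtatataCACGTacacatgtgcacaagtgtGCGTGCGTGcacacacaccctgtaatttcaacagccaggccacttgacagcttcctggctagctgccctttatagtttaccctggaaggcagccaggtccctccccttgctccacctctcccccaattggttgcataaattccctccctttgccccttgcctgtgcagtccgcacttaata
Vldlr: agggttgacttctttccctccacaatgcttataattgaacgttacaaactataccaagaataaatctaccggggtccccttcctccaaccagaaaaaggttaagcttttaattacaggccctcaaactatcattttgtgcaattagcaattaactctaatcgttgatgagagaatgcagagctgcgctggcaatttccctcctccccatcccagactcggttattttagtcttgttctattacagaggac
The Ankrd37 stretch held 4 matches, of which 2 overlapped on opposite strands, and its last match began 6 bases before the start. Ak4 held 2 matches, at 74 and 36 bases before the start, and Selenbp1 held 3. The stretches of Mxi1 and Vldlr held none, and another annotated start of Mxi1 did hold a match. Of the 34 members, 27 had a window in the table (250 bases before to 50 after the start). In 19 of these, 70.4 %, the window nearest the annotated start held a match. Over the whole table, of 32851 windows, the share was 43.8 %. The table holds several windows for some genes, so the 2 shares count different units. A match describes these letters only, and a window without one says nothing of binding elsewhere.

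Under 1 % O2 without stimulation, 23 of the 33 members that could be tested rose and 5 fell (1 % CTRL against 5 % CTRL, limma, adjusted p under 0.05). Over all 14541 genes tested, 29.4 % rose and 30.5 % fell. The median log2 fold change of the members was 0.73, against 0.001 over all genes. These shares depend on the scaling. When all libraries were brought to 1 common total, 39.0 % of all genes rose and 23.2 % fell, with 25 members rising and 4 falling. With stimulation, 19 members rose and 6 fell under 1 % O2 (1 % STIM against 5 % STIM), beside 29.0 % and 28.4 % of all genes, with a median of 0.27. On 1 common total these were 22 and 6 members beside 37.6 % and 21.9 %. Because the members were chosen with earlier results of these data known, their counts beside all genes are no independent test. Dpysl4, a cytosolic phosphoprotein of the collapsin response mediator family, was listed at 0 in all 24 libraries. Taken alone, a count of 0 in 1 library allows up to 3 expected reads, and the 24 libraries together allow fewer per library. Stc1 passed the filter on low values only through its libraries under 1 % O2, and without it the counts were 22 and 5 of 32 without stimulation and 18 and 6 with it.

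**Figure D1:**
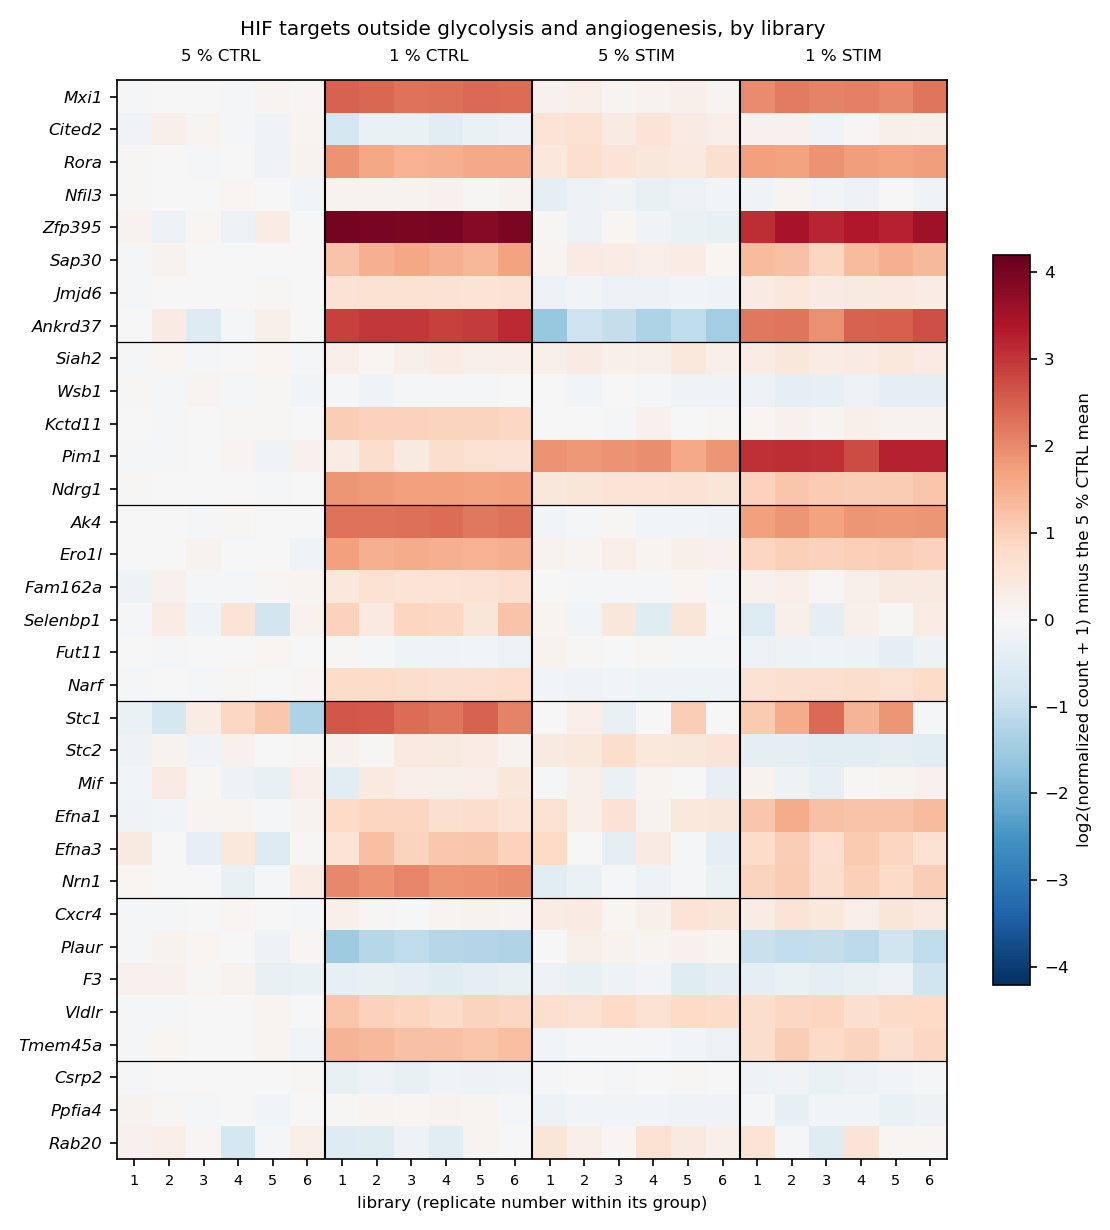
Each row is a member and each column a library, grouped by condition. Colour gives log2(normalized count + 1) minus the mean of the 5 % CTRL libraries, and lines part the role groups. Zfp395, Ankrd37, Mxi1 and Ak4 were raised in all 12 libraries under 1 % O2, and Pim1 was raised in all 12 stimulated libraries.

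The response to 1 % O2 differed with stimulation in 17 members, as tested by the interaction (the O2 response in stimulated minus that in unstimulated myotubes). It was lower with stimulation in 15 members and higher in 2, Pim1 and Ankrd37. Over all genes 5.43 % had a lower and 5.88 % a higher interaction. Read from the other side, stimulation under 5 % O2 raised 12 members and lowered 7 (5 % STIM against 5 % CTRL), beside 9.44 % and 12.0 % of all genes. Under 1 % O2 stimulation raised 6 members and lowered 18 (1 % STIM against 1 % CTRL), beside 11.5 % and 10.8 % of all genes, and 17 of 32 were lower without Stc1, which had passed the filter through the 1 % CTRL libraries. On 1 common total the shares of all genes were 12.8 % and 7.79 % under 5 % O2 and 14.7 % and 8.89 % under 1 % O2, beside 13 and 5 and then 6 and 17 members. The median response of the members to stimulation was 0.06 under 5 % O2 and -0.24 under 1 % O2 on the log2 scale. In these bulk libraries fewer cells of a type and less RNA per cell cannot be told apart.

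**Figure D2:**
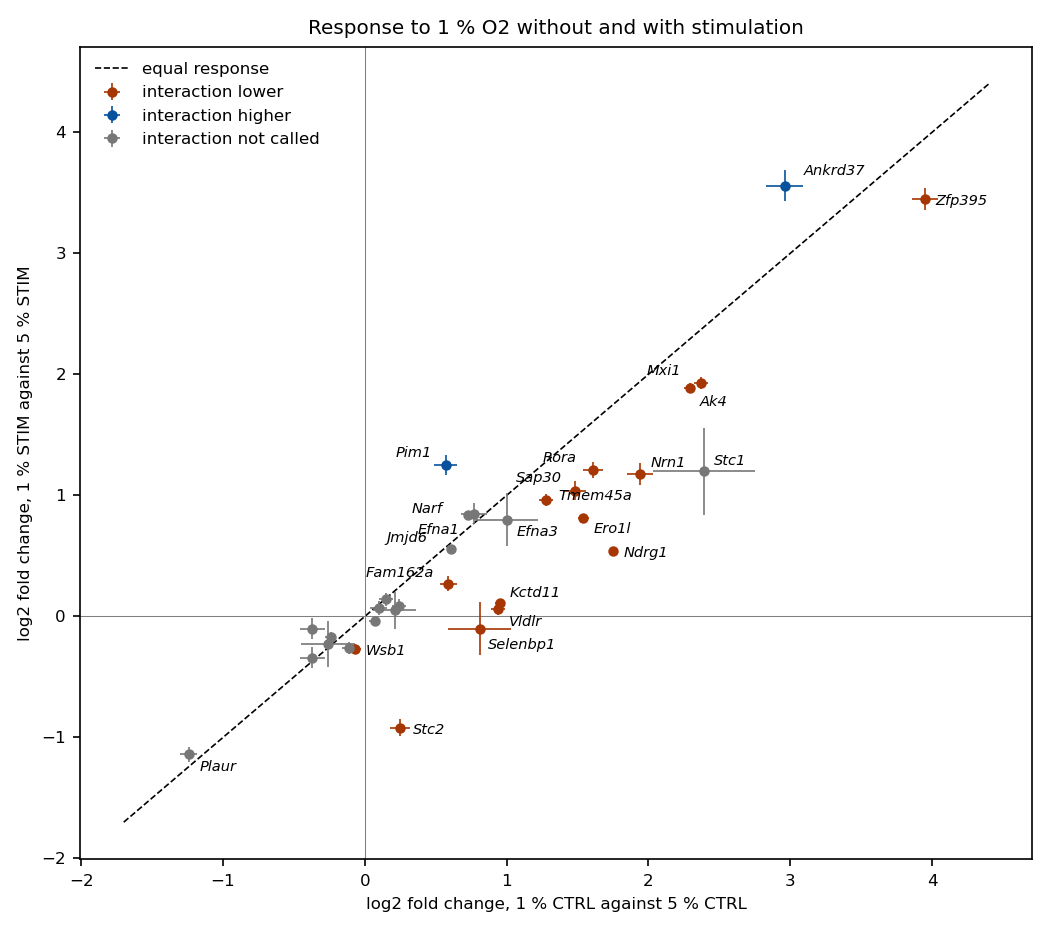
Each point is a member, with the log2 fold change under 1 % O2 without stimulation on the x axis and with stimulation on the y axis (bars, SE), coloured by the interaction. Ndrg1, Vldlr, Kctd11 and Stc2 lie well below the dashed line of equal response, Pim1 and Ankrd37 lie above it, and Plaur fell by a like amount on both axes.

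The 8 genes grouped as transcription and chromatin proteins, a broad group that takes in Ankrd37, held the largest rises. In this group 7 rose and 1 fell in each O2 comparison, with a median log2 fold change of 1.54 without and 1.12 with stimulation. Zfp395 (chr14:65358389-65398930), a zinc finger protein, ranged from 48.8 to 73.6 (median 59.7) normalized counts in 5 % CTRL, from 848 to 965 (median 929) in 1 % CTRL, from 47.5 to 61.6 (median 51.4) in 5 % STIM and from 509 to 696 (median 580) in 1 % STIM. No library under 1 % O2 came near those under 5 % O2, and the 1 % STIM libraries all lay below the 1 % CTRL libraries. Its mean was 15.6 times that of 5 % CTRL without stimulation (log2 fold change 3.95 ± 0.09 (SE), adjusted p = 1.27e-27) and 11.1 times that of 5 % STIM with it (3.45 ± 0.09, adjusted p = 8.97e-26). The interaction was -0.50 ± 0.13 (adjusted p = 0.0082), and 0.0546 by limma voom on the whole reads.

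Ankrd37 (chr8:45996902-46005707), a small ankyrin repeat protein, behaved differently. It ranged from 52.4 to 97.6 (median 75.5) in 5 % CTRL, from 564 to 673 (median 596) in 1 % CTRL, from 24.5 to 41.6 (median 33.2) in 5 % STIM and from 293 to 497 (median 397) in 1 % STIM. The 4 groups did not overlap. Stimulation lowered Ankrd37 by a larger factor under 5 % O2 (-1.21 ± 0.13, adjusted p = 7.04e-08) than under 1 % O2 (-0.62 ± 0.13, adjusted p = 0.000966), so that its log2 rise under 1 % O2 was 2.96 ± 0.13 without and 3.56 ± 0.13 with stimulation. This interaction of 0.59 ± 0.19 was close to the threshold (adjusted p = 0.0402). With a pseudocount of 10 the adjusted p was 0.106, and leaving out single libraries moved it between 0.00648 and 0.0737. In counts the rise was smaller with stimulation, 363 against 522 normalized counts. Of the Ankrd37 exons 26.4 % lie antisense to other genes, and the counter was run with default parameters, which do not use strand.

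Mxi1 (chr19:53310518-53375810), which competes with MYC for its partner MAX, ranged from 343 to 396 (median 372) in 5 % CTRL, from 1793 to 2055.7 (median 1899.4) in 1 % CTRL, from 394 to 447 (median 411) in 5 % STIM and from 1458.4 to 1763.4 (median 1577.8) in 1 % STIM. The groups under 1 % O2 stood apart from those under 5 % O2 and from each other. Its rise was 2.37 ± 0.05 (adjusted p = 1.2e-29) without and 1.93 ± 0.05 (adjusted p = 6.05e-27) with stimulation, an interaction of -0.44 ± 0.07 (adjusted p = 1.38e-05). Rora, a nuclear receptor of the circadian clock and of lipid metabolism, lay between 124 and 153 (median 139) in 5 % CTRL, 384 and 517 (median 418) in 1 % CTRL, 186 and 226 (median 198) in 5 % STIM and 448 and 511 (median 463) in 1 % STIM. Stimulation raised Rora under 5 % O2 (0.54 ± 0.07, adjusted p = 1.54e-07), with no overlap. Under 1 % O2 the difference was 0.14 ± 0.07 (adjusted p = 0.146), or 0.20 (adjusted p = 0.021) without 1 % CTRL replicate 1, which held the highest Rora value of its group. Its O2 response was 1.61 ± 0.07 without and 1.21 ± 0.07 with stimulation, and the interaction was -0.40 ± 0.10 (adjusted p = 0.00451). Sap30, a subunit of the SIN3 histone deacetylase complex, spanned 132 to 156 (median 139) in 5 % CTRL, 324 to 455 (median 394) in 1 % CTRL, 149 to 176 (median 172) in 5 % STIM and 265 to 395 (median 355) in 1 % STIM. Both groups under 1 % O2 lay above those under 5 % O2 and overlapped with each other. It rose by 1.48 ± 0.08 without and 1.04 ± 0.08 with stimulation, with an interaction of -0.44 ± 0.12 (adjusted p = 0.00942).

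The other 3 genes of this group had an O2 response that did not pass the interaction test. Jmjd6, an oxygenase of the JmjC family, rose by 0.61 ± 0.03 without and 0.56 ± 0.03 with stimulation, and the 95 % interval of the difference ran from -0.14 to 0.04. Nfil3, a leucine zipper repressor of the clock, rose by 0.15 ± 0.05 and 0.14 ± 0.05, and was lower with stimulation at both O2 levels (-0.23 ± 0.05 and -0.24 ± 0.05). Cited2, which competes with HIF for the coactivators CBP and p300, moved the opposite way. It fell under 1 % O2 by 0.37 ± 0.09 (adjusted p = 0.00167) and 0.34 ± 0.09 (adjusted p = 0.00334), and rose with stimulation by 0.45 ± 0.09 under 5 % O2 and 0.48 ± 0.09 under 1 % O2. Its highest values, 1659.3 to 2099.8, were in 5 % STIM and its lowest, 814 to 1173, in 1 % CTRL, and these groups did not overlap.

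Of the 5 ubiquitin ligase, kinase and signalling genes, 4 rose under 1 % O2 without stimulation and 3 did with it, and 3 had a lower interaction and 1 a higher one. Ndrg1 (chr15:66929318-66969640), a stress-responsive protein linked to growth arrest and differentiation, had the largest interaction of all members that passed the test. It ranged from 6147.4 to 6457.7 (median 6305.5) in 5 % CTRL, from 20503 to 22517 (median 20905.4) in 1 % CTRL, from 8826 to 9577.3 (median 9175.7) in 5 % STIM and from 12406.9 to 14167.9 (median 13300.4) in 1 % STIM. No groups overlapped, and both stimulated groups lay between the unstimulated ones. Its rise was 1.75 ± 0.03 (adjusted p = 4.29e-31) without and 0.54 ± 0.03 (adjusted p = 6.38e-17) with stimulation. Stimulation raised it under 5 % O2 (0.54 ± 0.03) and lowered it under 1 % O2 (-0.67 ± 0.03), an interaction of -1.21 ± 0.04 (adjusted p = 1.54e-20).

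Kctd11 (chr11:69878261-69881406), an adaptor of cullin-3 ubiquitin ligases that dampens Hedgehog signalling, ranged from 4509.8 to 4931.5 (median 4786.2) in 5 % CTRL, from 8636.3 to 9858.4 (median 9185.1) in 1 % CTRL, from 4544.1 to 5400.3 (median 4819.9) in 5 % STIM and from 5030 to 5522.1 (median 5249.8) in 1 % STIM. The 1 % CTRL libraries stood apart from all others, and 5 % STIM overlapped with both of the remaining groups. The rise was 0.95 ± 0.03 (adjusted p = 4.66e-22) without and 0.11 ± 0.03 (adjusted p = 0.00546) with stimulation. Under 5 % O2 the stimulated libraries differed from the unstimulated ones by 0.03 ± 0.03 (adjusted p = 0.557), while under 1 % O2 they were lower (-0.80 ± 0.03, adjusted p = 5.93e-19). The interaction was -0.83 ± 0.05 (adjusted p = 1.54e-14).

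Pim1 (chr17:29490753-29496112), a serine/threonine kinase of growth and survival signalling, had the opposite pattern. It ranged from 96.7 to 122 (median 107) in 5 % CTRL, from 134 to 182 (median 169) in 1 % CTRL, from 326 to 423 (median 398) in 5 % STIM and from 738 to 1034.9 (median 927) in 1 % STIM. The 4 groups did not overlap and stood in that order. Stimulation raised Pim1 by 1.83 ± 0.08 under 5 % O2 and by 2.51 ± 0.08 under 1 % O2, and 1 % O2 raised it by 0.57 ± 0.08 without and 1.25 ± 0.08 with stimulation. The interaction was 0.68 ± 0.12 (adjusted p = 0.000123). Of the Pim1 exons 14.5 % lie antisense to Gm26885.

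Wsb1, a substrate receptor of a ubiquitin ligase, ranged from 3439.3 to 4070.1 (median 3746.6) in 5 % CTRL, 3364.4 to 3691.5 (median 3586.2) in 1 % CTRL, 3408.4 to 3727.4 (median 3542.6) in 5 % STIM and 2795.8 to 3140 (median 2915.1) in 1 % STIM. The first 3 groups overlapped and 1 % STIM lay below them all. It fell under 1 % O2 with stimulation (-0.27 ± 0.04, adjusted p = 2.11e-07), the value without stimulation was -0.07 ± 0.04 (adjusted p = 0.113), and the interaction was -0.20 ± 0.05 (adjusted p = 0.0118). Siah2, a ubiquitin ligase for the prolyl hydroxylases, rose by 0.24 ± 0.05 under 1 % O2 (adjusted p = 3.4e-05) and by 0.29 ± 0.05 with stimulation under 5 % O2 (adjusted p = 1.59e-05). Its O2 response in stimulated myotubes was 0.09 ± 0.05 (adjusted p = 0.118), or 0.16 (adjusted p = 0.00474) on 1 common total, and its interaction was -0.16 ± 0.07 (adjusted p = 0.129).

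**Figure D3:**
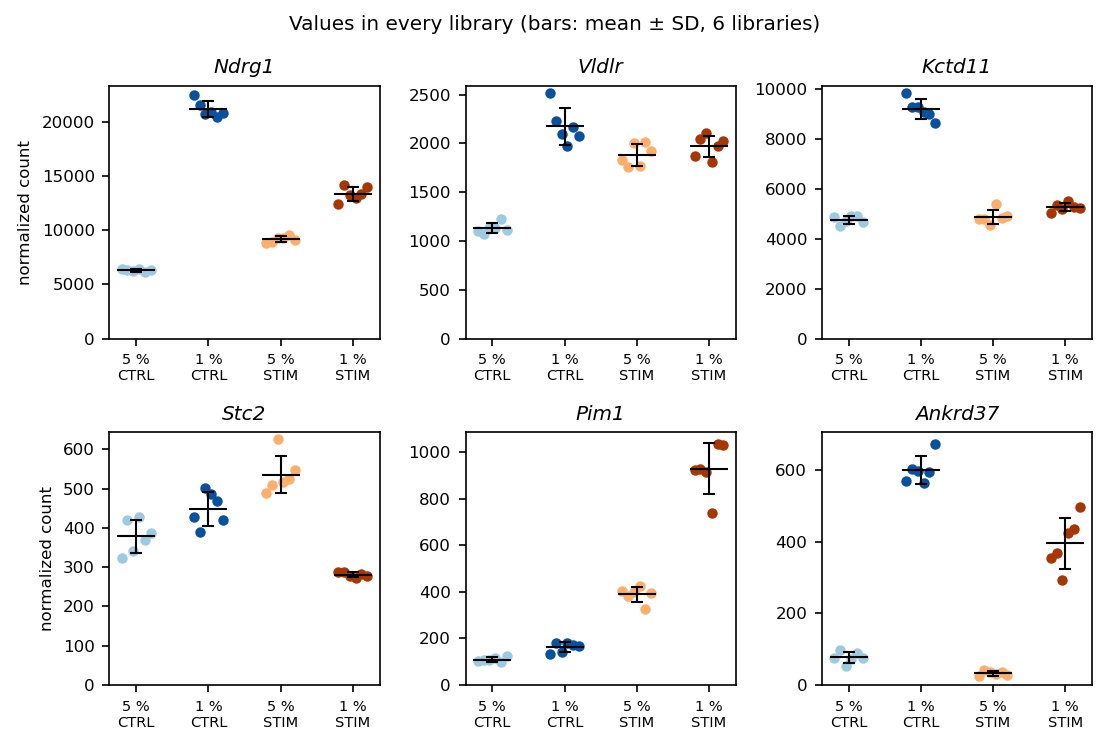
Normalized counts of 6 members in every library (points) with the mean and SD of 6 libraries (black bars), on axes that start at 0. Ndrg1, Vldlr and Kctd11 were highest in 1 % CTRL, Stc2 was highest in 5 % STIM and lowest in 1 % STIM, and Pim1 was highest in 1 % STIM.

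Among the 6 enzymes and mitochondrial proteins, 5 rose and 1 fell under 1 % O2 without stimulation, and 4 had a lower interaction. Ak4 (chr4:101419277-101466995), an adenylate kinase of the mitochondrial matrix, ranged from 699 to 747 (median 727) in 5 % CTRL, from 3396.4 to 3674.1 (median 3546.8) in 1 % CTRL, from 642 to 743 (median 675) in 5 % STIM and from 2330.8 to 2633 (median 2588.1) in 1 % STIM. The groups under 5 % O2 overlapped, and those under 1 % O2 lay above them and apart from each other. Its rise was 2.29 ± 0.04 (adjusted p = 3.72e-32) without and 1.89 ± 0.04 (adjusted p = 2.06e-29) with stimulation, an interaction of -0.40 ± 0.05 (adjusted p = 8.3e-07). Ero1l (chr14:45283087-45318771), the oxidase that drives disulfide bond formation in the endoplasmic reticulum, ranged from 2888.7 to 3523.2 (median 3214.3) in 5 % CTRL, from 8847.2 to 10539 (median 9171.7) in 1 % CTRL, from 3457.4 to 3887.9 (median 3625) in 5 % STIM and from 5993.5 to 6535.8 (median 6364.8) in 1 % STIM. Both groups under 1 % O2 lay above both under 5 % O2, with 1 % CTRL the highest. The rise was 1.54 ± 0.04 (adjusted p = 5.1e-26) without and 0.81 ± 0.04 (adjusted p = 4.17e-18) with stimulation, and the interaction was -0.74 ± 0.06 (adjusted p = 1.82e-11).

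Fam162a, a mitochondrial protein, ranged from 1088.9 to 1417.8 (median 1249.9) in 5 % CTRL, from 1701.6 to 2028 (median 1875.4) in 1 % CTRL, from 1209.4 to 1332.1 (median 1219.1) in 5 % STIM and from 1296.8 to 1639.5 (median 1492.4) in 1 % STIM. The 1 % CTRL libraries lay above all others, and the remaining groups overlapped. It rose by 0.59 ± 0.06 without and 0.27 ± 0.06 with stimulation, with an interaction of -0.32 ± 0.08 (adjusted p = 0.00614), and 19.8 % of its exons lie antisense to Wdr5b. Selenbp1, a selenium-binding methanethiol oxidase, was low, from 10.1 to 26.6 (median 18.2) in 5 % CTRL, 24 to 41.7 (median 33.9) in 1 % CTRL, 12.3 to 25.6 (median 18.5) in 5 % STIM and 11.7 to 22.4 (median 19.4) in 1 % STIM. The 1 % CTRL libraries overlapped with each of the groups under 5 % O2 and lay above 1 % STIM. Its rise was 0.81 ± 0.22 (adjusted p = 0.00167) without stimulation and its value with stimulation was -0.10 ± 0.22 (adjusted p = 0.71). The interaction of -0.91 ± 0.31 just passed the threshold (adjusted p = 0.049), and leaving out single libraries moved its adjusted p between 0.028 and 0.0968. Selenbp1 shares 29.9 % of its 75-base words with Selenbp2, so reads may be split between them.

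Narf, a nuclear protein that binds prelamin A and was grouped broadly with the enzymes, rose by 0.73 ± 0.03 without and 0.84 ± 0.03 with stimulation. The difference of 0.11 ± 0.04 did not pass after adjustment (adjusted p = 0.104). Fut11, a fucosyltransferase, fell by 0.11 ± 0.05 without stimulation (adjusted p = 0.0419) and by 0.26 ± 0.05 with it (adjusted p = 2.02e-05). On 1 common total the first of these was -0.03 (adjusted p = 0.561), and single libraries left out moved its adjusted p between 0.00605 and 0.129.

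In the group of 6 ligands and hormones, 5 rose under 1 % O2 without stimulation. Stc2 (chr11:31357307-31370074), a stanniocalcin, a secreted glycoprotein hormone, was the one member that passed the test in opposite directions in the 2 O2 comparisons. It ranged from 322 to 429 (median 378) in 5 % CTRL, from 389 to 502 (median 448) in 1 % CTRL, from 489 to 625 (median 520) in 5 % STIM and from 273 to 287 (median 280) in 1 % STIM. The 1 % STIM libraries lay below every other library, and the unstimulated groups overlapped. Stc2 rose by 0.25 ± 0.07 under 1 % O2 without stimulation (adjusted p = 0.00198) and fell by 0.92 ± 0.07 with it (adjusted p = 9.45e-14). The interaction was -1.17 ± 0.10 (adjusted p = 6.92e-11).

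Its relative Stc1 was close to the limit of detection, from 1.05 to 10.1 (median 4.17) in 5 % CTRL, 20.4 to 29.5 (median 25.8) in 1 % CTRL, 3.03 to 9.2 (median 4.11) in 5 % STIM and 3.9 to 25 (median 13.1) in 1 % STIM. The unstimulated groups did not overlap, and the stimulated ones did. The fitted rise was 2.39 ± 0.36 without and 1.20 ± 0.36 with stimulation, and the interaction was not called (-1.19 ± 0.51, adjusted p = 0.138). Nrn1, the surface-anchored neurotrophic protein neuritin, ranged from 76.7 to 117 (median 95) in 5 % CTRL, from 344 to 401 (median 363) in 1 % CTRL, from 67.4 to 90.9 (median 78.9) in 5 % STIM and from 161 to 199 (median 187) in 1 % STIM. Both groups under 1 % O2 stood apart. Its rise was 1.94 ± 0.09 without and 1.18 ± 0.09 with stimulation, with an interaction of -0.76 ± 0.12 (adjusted p = 4.79e-05), and 22.3 % of its exons lie antisense to Fars2.

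The ephrins Efna1 and Efna3, surface ligands of Eph receptors, rose in both O2 comparisons. Efna1 rose by 0.77 ± 0.09 without and 0.85 ± 0.09 with stimulation, and stimulation raised it at both O2 levels (0.43 ± 0.09 and 0.51 ± 0.09), so that 1 % STIM held its highest values, from 267 to 353. The interval of its interaction ran from -0.17 to 0.32. Efna3 ranged from 7.05 to 15.3 (median 11.4) in 5 % CTRL, 16.7 to 27.8 (median 23.6) in 1 % CTRL, 8.08 to 20.4 (median 10.7) in 5 % STIM and 17.5 to 24.8 (median 20.3) in 1 % STIM. The unstimulated groups did not overlap, and the stimulated ones did. At these low counts its interaction interval, -0.84 to 0.42, was wide, and 14.1 % of its exons lie antisense to Gm15998. Mif, a cytokine, did not pass any test. Its value in 1 % CTRL against 5 % CTRL was 0.21 ± 0.15 (adjusted p = 0.238), and 0.34 (adjusted p = 0.0289) without 1 % CTRL replicate 1, which had its lowest value. Mif shares 38.3 % of its 75-base words with other genes and is uncertain for that reason.

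Of the 5 receptors and other membrane proteins, 2 rose and 2 fell under 1 % O2 without stimulation, beside 29.4 % and 30.5 % of all genes. Vldlr (chr19:27216484-27254231), the very low density lipoprotein receptor, ranged from 1072 to 1226.2 (median 1122) in 5 % CTRL, from 1968.4 to 2515 (median 2131.3) in 1 % CTRL, from 1759.1 to 2012 (median 1876.3) in 5 % STIM and from 1811.2 to 2102.6 (median 1994.3) in 1 % STIM. The 5 % CTRL libraries lay below all others, and the other 3 groups overlapped. Vldlr rose by 0.94 ± 0.05 under 1 % O2 (adjusted p = 1.37e-17) and by 0.74 ± 0.05 with stimulation under 5 % O2 (adjusted p = 8.19e-14). With both, the further step was 0.06 ± 0.05 from 5 % STIM (adjusted p = 0.255) and -0.14 ± 0.05 from 1 % CTRL (adjusted p = 0.0311). The interaction was -0.88 ± 0.07 (adjusted p = 3.31e-11). When all libraries were scaled to 1 common total, the value from 5 % STIM was 0.14 (adjusted p = 0.0142).

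Tmem45a, a transmembrane protein, ranged from 788 to 934 (median 854) in 5 % CTRL, from 1902.8 to 2328.1 (median 2037.2) in 1 % CTRL, from 724 to 810 (median 799) in 5 % STIM and from 1358.4 to 1752.6 (median 1531.2) in 1 % STIM. The groups under 5 % O2 overlapped, and 1 % STIM lay between them and 1 % CTRL. It rose by 1.28 ± 0.05 without and 0.96 ± 0.05 with stimulation, with an interaction of -0.32 ± 0.08 (adjusted p = 0.00417). Plaur, the urokinase receptor, fell by the most of all members. It ranged from 793 to 1010 (median 932) in 5 % CTRL, from 324 to 434 (median 397) in 1 % CTRL, from 928 to 1099.1 (median 1012.3) in 5 % STIM and from 430 to 512 (median 452) in 1 % STIM. Libraries under 1 % O2 all lay below those under 5 % O2. The log2 fold change was -1.24 ± 0.06 (adjusted p = 1.23e-18) without and -1.14 ± 0.06 (adjusted p = 1.69e-17) with stimulation, and the interval of the interaction ran from -0.07 to 0.27.

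F3, tissue factor, the starter of blood coagulation, was lower under 1 % O2 without stimulation (-0.37 ± 0.09, adjusted p = 0.00098). With stimulation its value was -0.10 ± 0.09 (adjusted p = 0.375), and the interaction was 0.27 ± 0.13 (adjusted p = 0.204), or 0.36 (adjusted p = 0.0437) without 1 % STIM replicate 6. Cxcr4, the receptor of the chemokine CXCL12, rose with stimulation by 0.35 ± 0.06 under 5 % O2 and 0.32 ± 0.06 under 1 % O2. Its O2 responses were 0.10 ± 0.06 (adjusted p = 0.147) and 0.07 ± 0.06 (adjusted p = 0.317), and both passed when all libraries were scaled to 1 common total (0.18 and 0.14).

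Of the 3 tested cytoskeleton and trafficking genes none had an interaction (limma, adjusted p of 0.252 to 0.961). Csrp2, a LIM domain protein of the cytoskeleton, fell by 0.24 ± 0.04 without stimulation (adjusted p = 9.11e-07) and by 0.17 ± 0.04 with it (adjusted p = 0.000134). Ppfia4, a liprin of membrane-associated scaffolds, had O2 values of 0.07 ± 0.04 (0.15, adjusted p = 0.00283, on 1 common total) and -0.04 ± 0.04. It was lower with stimulation under 5 % O2 (-0.14 ± 0.04, adjusted p = 0.0202, or -0.11, adjusted p = 0.0727, on 1 common total) and under 1 % O2 (-0.26 ± 0.04, adjusted p = 3.41e-05). Rab20, a small GTPase of endosomes, was low (means of 22.2 to 34.4) and passed no test, with O2 values of -0.26 ± 0.19 and -0.23 ± 0.19. About 25.6 % of its exons lie antisense to another gene.

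To put a share on what remained, the log2 rise with stimulation was divided by that without it, for the 20 members that rose by at least 0.5 without stimulation. The median share kept was 74.9 % (jackknife SE over libraries 4.75 percentage points), and the members ran from -12.7 % (Selenbp1) to 220.1 % (Pim1). In 14 members the 95 % interval (Fieller) lay wholly below 100 %, or 13 without Stc1, in 3 wholly above it and in 3 it included 100 %. One of the 3 above, Narf, had no called interaction. Because these genes were chosen by their rise without stimulation, the share was read beside the 1622 genes that met the same rule, for which the median was 81.8 % and the middle 50 % ran from 61.3 % to 99.5 %. Of those genes 29.2 % had an interval wholly below 100 % and 2.96 % wholly above it. Of the 20 members 13 had a lower interaction, compared with 252 of the 1622 genes (15.5 %), and 2 had a higher one, compared with 14 (0.863 %). The 1622 genes were not matched to the members in size of rise or count level, on which such calls depend. Of the members 12 rose by at least 1. These contrasts in calls and intervals are therefore not like for like. Choosing members by their rise with stimulation instead gave 16 members and a median of 80.4 %. Taken as differences of mean counts, the median share was 64.0 %, Pim1 stood at 1007.1 % and Ankrd37 at 69.5 %.

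**Figure D4:**
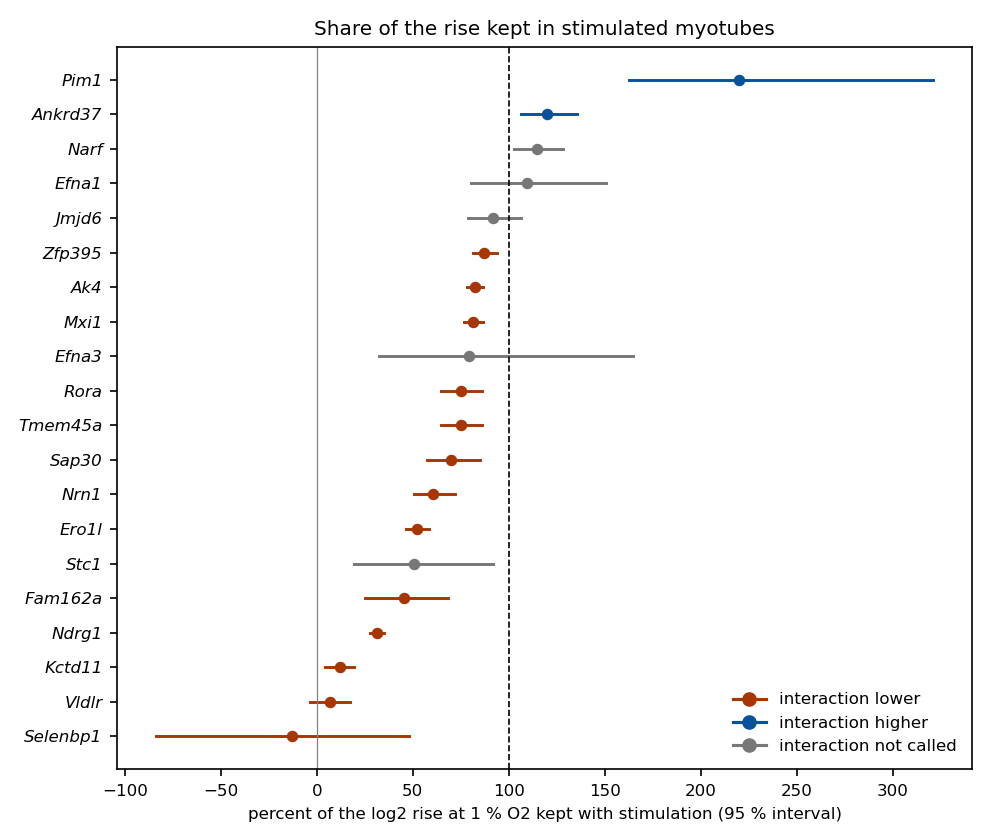
Each point is a member that rose by at least 0.5 (log2) without stimulation, placed at the percent of that rise seen with stimulation, with its 95 % interval and coloured by the interaction. Selenbp1, Vldlr and Kctd11 lie near 0 %, Ndrg1 at 31.1 %, most members between 45.2 % and 91.9 %, and Pim1 far above the dashed line at 100 %.

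The lowest share, that of Selenbp1 (-12.7 %), had an interval of -83.8 to 47.8 %, wide enough to hold those of the next 3 members. These were Vldlr, 6.9 % (interval -3.5 to 17.4 %), Kctd11, 11.9 % (4.5 to 19.4 %), and Ndrg1, 31.1 % (27.5 to 34.8 %). The interval of Ndrg1 did not meet those of the other 2, whose intervals overlapped. A middle range held Fam162a at 45.2 % (25.3 to 68.5 %), Stc1 at 50.4 % (19.2 to 92.0 %), Ero1l at 52.2 % (46.4 to 58.3 %), Nrn1 at 60.7 % (50.5 to 72.0 %) and Sap30 at 70.1 % (57.2 to 84.8 %). These intervals overlapped with intervals of the members that follow, so the range has no sharp edge. Tmem45a kept 74.9 % (64.8 to 86.1 %) with Rora next to it (64.7 to 86.3 %), followed by Efna3 at 79.2 %, Mxi1 81.5 %, Ak4 82.4 % and Zfp395 87.3 % (81.2 to 93.7 %), and the intervals of these 6 overlapped. Jmjd6 kept 91.9 % (79.0 to 106.6 %), Efna1 109.5 % (80.4 to 150.4 %), Narf 114.5 % (102.6 to 128.0 %) and Ankrd37 120.1 % (106.5 to 135.8 %). 

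The members with a lower interaction reached it by different routes, seen when their stimulation responses are set side by side. These comparisons use the same libraries as the interaction, so they describe it and do not test it again. Among the 13 such members with a share, Vldlr, Ndrg1, Ero1l and Mxi1 rose with stimulation under 5 % O2 and fell with it under 1 % O2, with log2 fold changes of 0.74, 0.54, 0.17 and 0.17 under 5 % O2 and of -0.14, -0.67, -0.56 and -0.26 under 1 % O2. Sap30 and Rora rose under 5 % O2 (0.24 and 0.54), with values of -0.20 (adjusted p = 0.0703) and 0.14 (adjusted p = 0.146) under 1 % O2. Kctd11, Ak4, Zfp395, Tmem45a, Fam162a and Selenbp1 fell with stimulation under 1 % O2, with log2 fold changes from -0.84 for Selenbp1 to -0.34 for Fam162a, and their values under 5 % O2 did not pass the test (-0.14 to 0.08). Nrn1 fell at both O2 levels, with -0.25 (adjusted p = 0.0408) under 5 % O2 and -1.01 (adjusted p = 3.75e-11) under 1 % O2. The calls of Sap30 and Nrn1 under 5 % O2 and of Vldlr under 1 % O2 were close to the threshold (adjusted p of 0.0328, 0.0408 and 0.0311), and each was lost when single libraries were left out. By edgeR, DESeq2 and limma voom, Sap30 had adjusted p of 0.0545, 0.0611 and 0.126 and Nrn1 of 0.0604, 0.0779 and 0.119. On 1 common total Vldlr had an adjusted p of 0.0638 by limma. Other calls were gained. Under 1 % O2 Sap30 passed by limma voom (-0.20, adjusted p = 0.0471). By limma it passed without 1 % CTRL replicate 1 (adjusted p = 0.0133) or 1 % STIM replicate 5 (adjusted p = 0.0331). Rora passed there without 1 % CTRL replicate 1 (0.20, adjusted p = 0.021). Under 5 % O2 Ak4 passed without 5 % STIM replicate 3 (-0.12, adjusted p = 0.0186). The routes of these members are therefore uncertain.

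**Figure D5:**
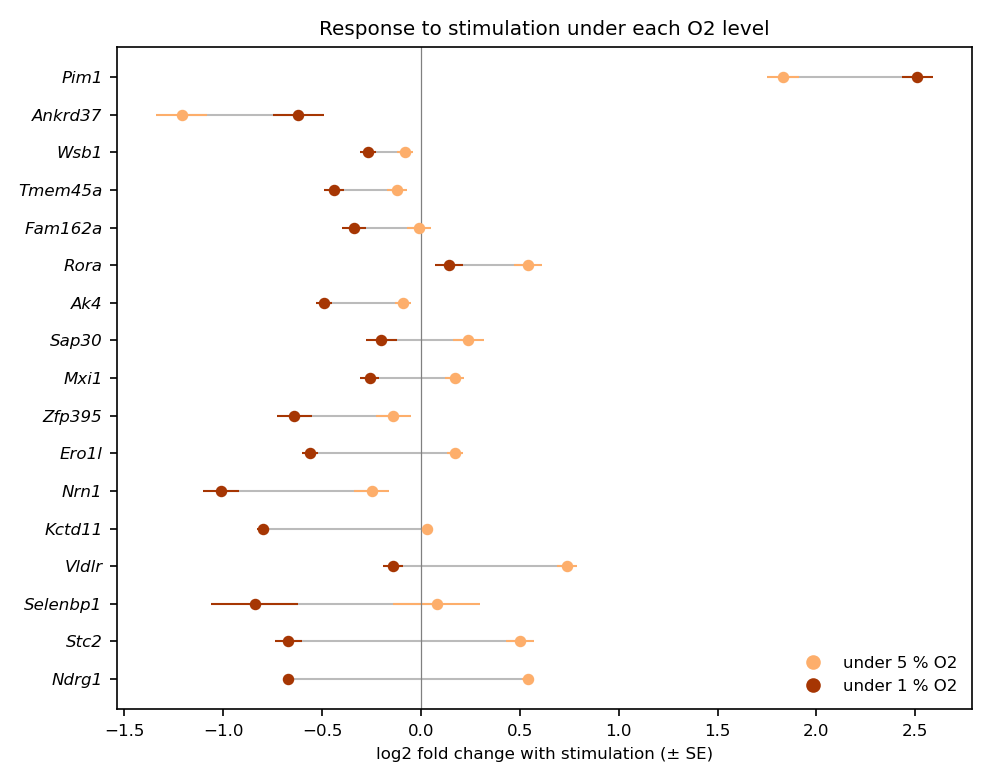
Log2 fold change with stimulation (± SE) under 5 % O2 and under 1 % O2 for the 17 members with an interaction, ordered by its size. In 15 members the value under 1 % O2 lies to the left of that under 5 % O2, and Pim1 and Ankrd37 are the exceptions.

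Read per kilobase of exon, the member with the highest level in 5 % CTRL was Mif (5579.8 normalized counts per kb), followed by Kctd11 (1514.8), Fam162a (1478.1), Ndrg1 (955) and Wsb1 (940). In 1 % CTRL Ndrg1 stood at 3213.3 and Kctd11 at 2922 per kb. Ankrd37 and Zfp395 went from 50.3 and 12.5 per kb in 5 % CTRL to 390 and 195 in 1 % CTRL. Selenbp1, Efna3 and Stc1 stayed under 15 per kb in all groups, with levels per kb of at most 14.3, 9.56 and 6.09.

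Other genes of the HIF pathway give the setting. Of 9 tested HIF subunits and O2-sensing hydroxylases, 4 rose and 2 fell under 1 % O2 without stimulation and 2 had a lower interaction. Egln3, a prolyl hydroxylase and itself a HIF target, rose by 1.71 ± 0.03 (adjusted p = 7.28e-31) with an interaction of -0.46 (adjusted p = 9.68e-10), and Vhl rose by 0.96 (adjusted p = 1.02e-16) with an interaction of -0.15 (adjusted p = 0.216). Of 20 glycolytic targets, 18 rose and 1 fell, 12 had a lower interaction and none a higher one, and the 9 with a share kept a median of 69.0 %. Slc2a3, a glucose transporter, rose by 4.52 from a low mean of 9.08 normalized counts in 5 % CTRL. Pfkfb3, a regulator of glycolytic flux, rose by 2.30. Of 10 angiogenic targets 4 rose and 6 fell, led by the peptide adrenomedullin (Adm, 3.97) and the secreted protein Angptl4 (-1.88). Of 16 further HIF targets 11 rose and 3 fell, with the stress regulator Ddit4 (2.40) and the histone demethylase Kdm3a (1.43) in front, and the 9 with a share kept a median of 63.5 %. Beside these counts, 29.4 % of all genes tested rose and 30.5 % fell under 1 % O2 without stimulation, and 5.43 % had a lower interaction. No test compared the lists with each other or with all genes.

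The libraries held 26541858 to 28173745 reads counted on genes. Defining genes of myotubes were at high levels in all groups. Of the 14 on the list 9 fell under 1 % O2 without stimulation and 9 with it, 7 of them in both, with none rising. Of all genes tested 30.5 % fell without stimulation and 28.4 % with it. Their summed level was 531139.9 to 581304.2 normalized counts in 5 % CTRL, 470020.1 to 526344.3 in 1 % CTRL, 486948.3 to 563736.5 in 5 % STIM and 463285.1 to 510140.3 in 1 % STIM. Of 7 myoblast and cycling cell markers 5 rose and 1 fell under 1 % O2 without stimulation, and 4 rose and 1 fell with it. Of all genes tested 29.4 % rose without stimulation and 29.0 % with it. The sum of these markers was 5352.9 to 5868.2 in 5 % CTRL, 6615.2 to 8928.9 in 1 % CTRL, 5778.7 to 6481.1 in 5 % STIM and 6444.6 to 7714.9 in 1 % STIM. The part of these shifts in the members' values was not tested. Blood, endothelial and epithelial markers were low apart from Cd68, a lysosomal protein of macrophages and other cells (group means of 40.0 to 47.1). Ptprc, Adgre1 and Epcam were at no more than 1.04 normalized counts in any library. The endothelial markers Pecam1 and Cdh5 reached 5.72 and 9.15 in their highest library. The sum of all 6 lay between 32.7 and 77.7. One library, 1 % CTRL replicate 1, stood further from the others of its group (SD of the log2 difference over genes 0.447, against 0.298 to 0.354 in the others). Without it 24 members rose and 5 fell in 1 % CTRL against 5 % CTRL, 14 had a lower and 2 a higher interaction, and the median share kept was 74.9 %.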

How the data were processed

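The authors prepared stranded mRNA libraries from 6 biological replicates (cultures) per group and checked the single-end reads with FastQC 0.11.7. They aligned them with STAR 2.5.4b to GRCm38 and counted genes with RSEM 1.3.0 at default parameters, which do not use strand, versions per the labels. The deposited signal is the gene count divided by a DESeq2 size factor, a normalized count without a length term. All values were whole multiples of 1 read per library (within 0.001), so the reads counted on genes were recovered, giving 26541858 to 28173745 per library. A second deposited table of the authors' own fold changes, p-values and calls was not used.

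Values were tested as log2(normalized count + 1) with limma 3.58.1 (R 4.3.3, trend and robust, one fit of the 4 groups, Benjamini-Hochberg adjusted p under 0.05) over 14541 genes with at least 10 in at least 6 libraries. Fold changes on this scale understate those of low genes. The share kept has a 95 % Fieller interval. On the recovered reads, edgeR 4.0.16 called 8744 genes in 1 % CTRL against 5 % CTRL and 1660 in the interaction, beside 8708 and 1645 by limma, and DESeq2 1.42.0 called 8630 and 1820. The fits were tested on simulated data in which only genes at higher counts changed and all genes had the same dispersion. That check does not cover changes in genes at low counts.

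All members are named, with values for those called in an O2 comparison with a log2 fold change of at least 1 in size, or in the interaction, and of each list of other HIF genes up to 2 called genes with the largest change in 1 % CTRL against 5 % CTRL. Members and lists were chosen with earlier results of these data known. Coordinates and exon lengths are from the GENCODE annotation of GRCm38, promoters from RefSeq, which held 27 of 34 members. Alternatives were stricter calls, other pseudocounts, filters, scalings and tools, a replicate block and leaving out each library. P-values measure the spread between cultures of 1 cell line.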

Additional observations from a re-analysis of the deposited data

Results flagged for a closer look

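Within groups of 6 libraries, 13 of 132 sets of member values held 1 library far from the rest, with a gap to its nearest neighbour above Dixon's 95 % critical share of the range of the group. Chance alone gives such a gap in about 5 % of groups. Of these 13, 7 were in 1 % CTRL. There, replicate 1 had the highest Rora (517, others 384 to 427) and Ero1l (10539, others 8847.2 to 9476.9) and the lowest Mif (3040.2, others 4909.9 to 5684.5). Replicate 5 of 1 % CTRL had the lowest Nfil3 (1191) and Zfp395 (848), replicate 6 the highest Ankrd37 (673) and replicate 2 the lowest Siah2 (697). The others were Sap30 in 5 % CTRL replicate 2 (156), Fam162a and Stc1 in 5 % STIM replicate 5 (1332.1 and 9.2), Tmem45a in 5 % STIM replicate 6 (724), Fut11 in 1 % STIM replicate 5 (479) and F3 in 1 % STIM replicate 6 (136), all in normalized counts.

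The response to 1 % O2 differed between stimulated and unstimulated myotubes in 17 members, by limma's interaction on the log2 scale. The lower ones were Ndrg1 (-1.21), Stc2 (-1.17), Selenbp1 (-0.91), Vldlr (-0.88), Kctd11 (-0.83), Nrn1 (-0.76), Ero1l (-0.74), Zfp395 (-0.50), Mxi1 and Sap30 (both -0.44), Rora and Ak4 (both -0.40), Fam162a and Tmem45a (both -0.32) and Wsb1 (-0.20). The higher ones were Pim1 (0.68) and Ankrd37 (0.59).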

How the results depend on the processing

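Counts of members called moved by less than 1.5 times under most alternatives, which were another threshold, pseudocount, filter, scaling, tool, block or set of libraries. At an adjusted p under 0.01, 4 members in place of 7 fell in 5 % STIM against 5 % CTRL. The interaction was higher in 1 member in place of 2 at that threshold, with a pseudocount of 10, without a filter on low values and by limma voom, since Ankrd37 was lost. The median share kept was 64.0 % from differences of mean counts and 80.4 % over members chosen by their rise with stimulation, in place of 74.9 %. Over the libraries left out in turn it ran from 71.8 % to 76.7 %, a range that is not an interval. The jackknife standard error of the median from these fits was 4.75 percentage points. Members higher and lower ran from 23 to 24 and 4 to 5 in 1 % CTRL against 5 % CTRL, from 18 to 20 and 6 to 6 in 1 % STIM against 5 % STIM, from 11 to 13 and 4 to 8 in 5 % STIM against 5 % CTRL, from 5 to 7 and 16 to 19 in 1 % STIM against 1 % CTRL, and from 1 to 2 and 14 to 15 in the interaction. Same-numbered libraries of different groups did not deviate together (36 pairs, r from -0.148 to 0.155, 7 of 24 libraries closest to their own number). With the replicate number as a block the interaction was lower in 14 members in place of 15, without Selenbp1 (adjusted p = 0.0636), and the other counts were those without the block. Across single members and alternatives 5224 values kept their call and direction, 119 lost a call, 20 gained one, 49 that were not called changed sign and no called value did. Calls that hung on single libraries were the interactions of Ankrd37 and Selenbp1, each lost without any of 15 libraries (adjusted p up to 0.0737 and 0.0968). The 9 libraries that could be left out with the Ankrd37 call in place were 5 % CTRL replicate 3, 1 % CTRL replicates 1 and 6, 5 % STIM replicates 2, 3 and 5 and 1 % STIM replicates 1, 2 and 3. For Selenbp1 they were 5 % CTRL replicates 2, 4 and 6, 1 % CTRL replicates 2 and 5, 5 % STIM replicate 4 and 1 % STIM replicates 2, 4 and 6. In 5 % STIM against 5 % CTRL, Sap30 was lost without 5 % CTRL replicate 1, 3 or 5 or 5 % STIM replicate 2, 3, 4 or 5 (up to 0.0698), and Nrn1 without replicate 1, 2 or 6 of either group, 5 % CTRL replicate 3 or 5 % STIM replicate 4 (up to 0.126). Fut11 in 1 % CTRL against 5 % CTRL was lost without replicate 3, 4, 5 or 6 of either group (up to 0.129), and Stc1 in 1 % STIM against 1 % CTRL without 1 % CTRL replicate 1, 2, 3, 4 or 5 or 1 % STIM replicate 1, 4 or 6 (up to 0.135). In 1 % STIM against 1 % CTRL, Siah2 was lost without 1 % CTRL replicate 2, 3 or 5 or 1 % STIM replicate 2 or 5 (up to 0.142), and Vldlr without 1 % CTRL replicate 1, 2 or 5 or 1 % STIM replicate 1 or 4 (up to 0.0902). In 5 % STIM against 5 % CTRL, F3 was lost without 5 % CTRL replicate 1, 2 or 4 or 5 % STIM replicate 5 (up to 0.0578), and Ppfia4 without replicate 1 of either group (up to 0.0692). Nfil3 in 1 % STIM against 5 % STIM was lost without 1 % STIM replicate 2 (0.0576). The cause was not tested. Low counts limit Stc1, Efna3, Selenbp1 and Rab20.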
